A study of Homo sapiens with 4 samples.

Results

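Genes of cholesterol and fatty acid synthesis were examined in RNA-seq of U937 cells, an established human line with monocytic features. The study counts U937 among its acute myeloid leukemia (AML) lines. The set of 34 genes was chosen by function and holds 19 enzymes of the sterol arm and 9 enzymes of the fatty acid arm. It also holds 5 genes that encode the sterol regulatory element-binding proteins (SREBPs) or proteins that control them, called the regulators below. The last gene is STARD4, which carries sterol between membranes. Of the 34 genes, 32 were among the 17656 genes of the deposited table, and HSD17B7 and ELOVL6 were not analysed here. Each of the 32 passed the filter on low values, which 14582 genes passed in all.

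The comparison concerns genes whose level changes with ZNF217, a zinc finger protein that acts on transcription, and 4 libraries were compared. A pair of U937 libraries carried the label sh-ZNF217, stated to have ZNF217 knocked down, and a pair carried the label NC, described as untreated. The study delivered its hairpins by lentivirus into a stably transduced line grown in serum, which supplies lipid from outside the cell, while its account of the RNA-seq speaks of Cas9 knockout, so the agent behind the label is not certain. The labels do not say whether replicates were cultured separately, and p-values therefore measure only the spread between these libraries, which may be technical.

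Values are TPM, a gene's portion of its library's transcripts, with reads divided by transcript length and each library scaled to a common total. TPM keeps no read depth, so counting error is unknown. The columns summed to 998932 and 998959 TPM for sh-ZNF217 and to 999280 and 999282 TPM for NC. ZNF217 itself stood at 35.8 and 35.0 TPM in libraries labelled sh-ZNF217, against 36.1 and 36.7 TPM in NC, which is -0.04 on the log2 scale (SE 0.07, adjusted p = 0.74 by limma), or -0.15 (adjusted p = 0.154) after a correction for GC content and length. The transcript level thus did not bear out the label, every direction below is drawn from the label alone, and the wording "libraries labelled sh-ZNF217" is kept for that reason. The study reports that its hairpins lowered ZNF217 mRNA and protein in AML lines, by qRT-PCR and Western blot. Protein cannot be read from these libraries. Of 9 myeloid markers 8 reached 1 TPM, and MPO, at 0.085 to 0.51 TPM, did not. Their summed level was 6332 to 6515 TPM in libraries labelled sh-ZNF217 and 4074 to 4099 TPM in NC, with LYZ, the lysozyme gene, as the largest part. The share of TPM in mitochondrially encoded genes was 12.5% and 12.7% in the libraries labelled sh-ZNF217, against 9.98% and 10.8% in NC. T and NK markers summed to 101 to 110 TPM against 69.1 to 86.3 TPM in NC, most of it NKG7, and B cell markers to 4.45 to 7.06 TPM against 5.51 to 10.7 TPM. Of 7 erythroid and megakaryocyte markers and 8 epithelial and fibroblast markers, 0 were among the genes analysed here. The part of these differences in the results below was not tested.

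Cells build cholesterol from acetyl-CoA through mevalonate, the isoprenoids and squalene, and then trim and reduce lanosterol step by step. SREBPs are membrane-bound transcription factors that SCAP escorts out of the endoplasmic reticulum when sterol is scarce, and INSIG proteins hold the pair back when sterol is plentiful. SREBF2 encodes the SREBP that acts mainly on sterol genes, and SREBF1 the one that in its liver form acts mainly on fatty acid genes and is itself a target of the oxysterol receptors LXR. In macrophages the pathway is known for its link to foam cell formation, since these cells take up lipid and must balance uptake, synthesis and export.

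SREBPs bind the sterol regulatory element together with NF-Y, a factor that recognizes the letters CCAAT. RefSeq promoter windows (GRCh38.p14, from 250 bases before to 50 bases after a gene's start) were at hand for 30 of the 34 genes in 43 windows, and ACAT2, FDFT1, SQLE and FASN had none. On either strand CCAAT was found in 27 of the 43 windows (62.8%) and in 23 of the 30 genes, against 34.9% of 13697 windows of genes tested here and 34.6% of all 35116 windows. The sterol element, searched as TCACNCCAC, was found in 1 of the 43 windows (2.33%), that of SREBF2, against 0.964% of the windows of tested genes. The GC box GGGCGG was in 86.0% of member windows and 65.9% of those of tested genes, and the E-box CACGTG in 14.0% and 9.62%. A match is a description of these letters and not evidence of a bound site. The 5 windows printed here belong to the genes that were called changed and to a pair of SREBP system genes set beside them, and capitals mark the sterol element and CCAAT, which reads ATTGG where it lies on the opposite strand.
MSMO1 (chr4:165327419-165327718, plus strand): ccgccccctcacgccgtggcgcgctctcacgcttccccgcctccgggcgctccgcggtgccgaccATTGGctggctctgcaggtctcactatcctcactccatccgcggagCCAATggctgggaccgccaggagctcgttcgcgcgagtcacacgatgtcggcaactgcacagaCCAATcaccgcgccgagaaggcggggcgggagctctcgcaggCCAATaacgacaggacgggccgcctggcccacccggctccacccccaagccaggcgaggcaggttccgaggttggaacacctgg
STARD4 (chr5:111512486-111512785, minus strand): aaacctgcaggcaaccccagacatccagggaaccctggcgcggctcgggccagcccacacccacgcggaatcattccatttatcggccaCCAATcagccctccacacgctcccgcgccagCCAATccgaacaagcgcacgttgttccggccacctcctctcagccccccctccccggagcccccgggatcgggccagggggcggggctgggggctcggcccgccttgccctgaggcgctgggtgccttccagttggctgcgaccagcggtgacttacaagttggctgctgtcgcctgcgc
SREBF1 (chr17:17836937-17837236, minus strand): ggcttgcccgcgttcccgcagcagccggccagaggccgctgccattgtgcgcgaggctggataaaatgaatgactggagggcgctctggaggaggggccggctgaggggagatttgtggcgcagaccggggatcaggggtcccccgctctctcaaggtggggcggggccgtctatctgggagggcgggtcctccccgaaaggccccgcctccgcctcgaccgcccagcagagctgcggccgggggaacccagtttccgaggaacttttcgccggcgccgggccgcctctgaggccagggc
SREBF2 (chr22:41832855-41833154, plus strand): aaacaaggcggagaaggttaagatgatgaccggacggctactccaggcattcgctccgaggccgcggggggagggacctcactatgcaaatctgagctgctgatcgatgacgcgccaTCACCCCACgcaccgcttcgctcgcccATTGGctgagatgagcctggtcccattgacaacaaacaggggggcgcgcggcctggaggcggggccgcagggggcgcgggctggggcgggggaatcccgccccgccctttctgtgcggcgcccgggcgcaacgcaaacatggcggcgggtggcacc
INSIG1 (chr7:155297628-155297927, plus strand): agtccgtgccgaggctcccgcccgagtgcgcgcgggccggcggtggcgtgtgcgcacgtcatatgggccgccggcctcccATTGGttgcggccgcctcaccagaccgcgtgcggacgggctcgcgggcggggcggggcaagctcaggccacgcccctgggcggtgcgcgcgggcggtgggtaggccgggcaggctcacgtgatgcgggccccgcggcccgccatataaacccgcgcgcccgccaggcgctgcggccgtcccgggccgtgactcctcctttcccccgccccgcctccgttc
The window of MSMO1 held 4 CCAAT matches and that of STARD4 held 2, while INSIG1 and SREBF2 had 1 each and SREBF1 had 0.

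Of the 32 genes, 2 rose and 1 fell in the libraries labelled sh-ZNF217 by the call rule, which asks for an adjusted p from limma below 0.05 together with a log2 fold change beyond 0.5 either way. That is 9.38% where 8.72% of all 14582 tested genes were called. By this rule the set as a whole was thus close to the background. MSMO1 and STARD4 rose (6.25%, against 6.26% of all genes) and SREBF1 fell (3.12%, against 2.46%). At an adjusted p below 0.05 with no fold minimum, 9 members passed (28.1%, against 16.9% of all genes), of which 6 were higher (18.8%, against 9.77%) and 3 lower (9.38%, against 7.11%). The 6 higher ones were IDI1, SQLE, MSMO1 and SC5D of the sterol arm, with INSIG1 and STARD4. The 3 lower ones were FASN and SCD of the fatty acid arm, with SREBF1. This count depended on the settings. With plain empirical Bayes, which lets go of the trend and robust weights, MSMO1 and STARD4 were the 2 members left (4.96% of all genes then passed), and the adjusted p of IDI1, SQLE, SC5D, INSIG1, FASN and SCD was 0.0714 to 0.122. With 1 library left out the count was 0 to 4, with 0 when sh-ZNF217 replicate 1 was the one left out, where 3.23% of all genes passed. Leaving out NC replicate 1 or sh-ZNF217 replicate 2 gave a count of 2, and leaving out NC replicate 2 gave 4. With the replicate number as a block 6 passed, and SQLE (0.050006), SCD (0.0537) and SREBF1 (0.0559) did not. Levels did not overlap between the groups in 23 members (71.9%, against 62.2% of all genes), in 15 that were higher (46.9%, against 33.5% of all genes) and in 8 that were lower (25.0%, against 28.6%).

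**Figure D1:**
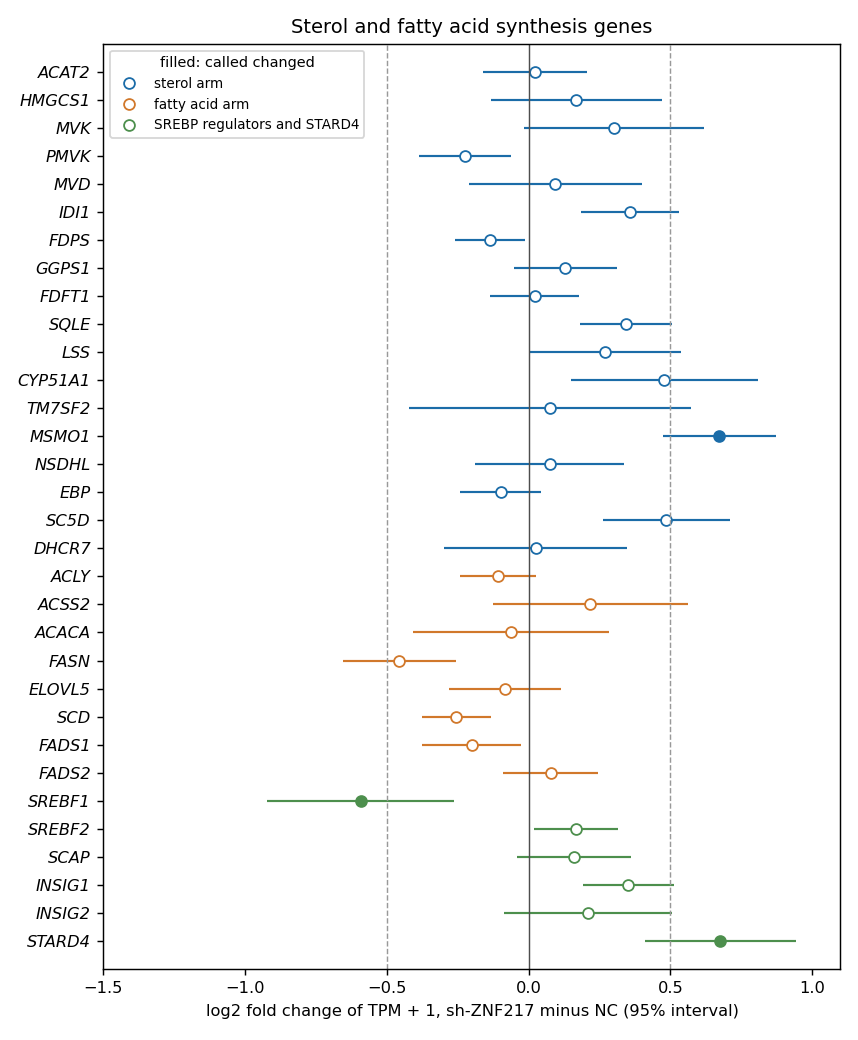
Log2 fold change (from TPM + 1, sh-ZNF217 minus NC by label) for 32 genes of sterol and fatty acid synthesis, with 95% intervals from limma and dashed lines at the 0.5 minimum. Filled points are the called genes, MSMO1 (0.67) and STARD4 (0.68) on the right and SREBF1 (-0.59) on the left, and the sterol arm lies further to the right than the fatty acid arm.

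The arms were set side by side by counts and medians, and their difference was not tested. In the sterol arm 15 of 18 tested enzymes had a positive log2 fold change and 3 a negative one, with a median of 0.11. Of all 14582 tested genes 7649 were positive, and their median over all genes was 0.021. Among the 15, ACAT2, FDFT1 and DHCR7 were near 0 (0.02 each) and changed sign in some settings. MVD (0.09), TM7SF2 (0.08) and NSDHL (0.07), also among the 15, changed sign when certain single libraries were left out. In the fatty acid arm 2 of 8 were positive and 6 negative, with a median of -0.10, and the medians differed by 0.21 on the log2 scale. The sterol arm held 1 called enzyme, MSMO1 (5.56%), and the fatty acid arm 0 by limma, where 8.72% of all genes were called. At an adjusted p below 0.05 with no fold minimum, the sterol arm had 4 higher (22.2%) and 0 lower. The fatty acid arm had 0 higher and 2 lower (25.0%), FASN and SCD, both short of the fold minimum. Of all tested genes 9.77% were higher and 7.11% lower by that rule. These counts depended on the settings, as given above. Summed over the arm, sterol enzymes took 1231 and 1225 TPM in libraries labelled sh-ZNF217, against 1203 and 1172 TPM in NC, a ratio of 1.03. Summed fatty acid enzymes took 683 and 668 TPM in libraries labelled sh-ZNF217, against 737 and 766 TPM in NC, a ratio of 0.899. Neither sum overlapped between the groups. With median-of-ratios scaling the sterol sums did overlap, at 1213 and 1206 in libraries labelled sh-ZNF217 against 1214 and 1180 in NC (ratio 1.01, an alternative chosen after seeing the data), and the fatty acid sums still did not (ratio 0.878). The sum of all 32 genes was 2148 and 2137 TPM in libraries labelled sh-ZNF217 and 2155 and 2152 TPM in NC. With 2 libraries against 2, an exact two-sided permutation test of such a sum cannot give a p below 0.333, and none was run.

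Early enzymes of the sterol arm, from acetyl-CoA to the isoprenoids, had fold changes on both sides of 0. IDI1, which interconverts the isoprenoid building blocks, was at 132 and 119 TPM in libraries labelled sh-ZNF217, against 98.6 and 97.0 TPM in NC. IDI1 was higher in both, with a log2 fold change of 0.36 (SE 0.07, adjusted p = 0.0265) below the fold minimum. MVK, the mevalonate kinase, was at 16.6 and 13.9 TPM against 11.7 and 12.5 TPM in NC (0.30, adjusted p = 0.161). HMGCS1, which makes HMG-CoA, was at 14.8 and 12.7 TPM against 11.8 and 12.4 TPM in NC (0.17, adjusted p = 0.385). These 2 genes lay apart between the groups by less than the spread allowed the test to call, and much of the distance came from replicate 1 of the libraries labelled sh-ZNF217. GGPS1, which makes the geranylgeranyl donor of protein prenylation, was at 40.8 and 43.7 TPM against 38.3 and 38.7 TPM in NC (0.13).

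Both genes of this early stretch with negative values are abundant. PMVK, the next kinase after MVK, was at 96.7 and 93.1 TPM in libraries labelled sh-ZNF217, against 115 and 107 TPM in NC (log2 fold change -0.22, limma adjusted p = 0.0679). FDPS, the farnesyl diphosphate synthase, had the highest level of all 32 genes, 298 and 306 TPM against 338 and 327 TPM in NC (-0.14, adjusted p = 0.115). Neither passed, although the groups did not overlap in either. With median-of-ratios scaling PMVK did pass without the fold minimum (-0.26, adjusted p = 0.0498). ACAT2, the cytosolic thiolase (0.02), and MVD, the mevalonate diphosphate decarboxylase (0.09), overlapped between the groups. MVD was at 35.6 and 45.1 TPM in libraries labelled sh-ZNF217, a wider spread than the 36.4 and 38.7 TPM of NC. The ratio of IDI1 to FDPS within a library was 0.444 and 0.389 in the libraries labelled sh-ZNF217 and 0.291 and 0.296 in NC. This gap only restates the levels above, with IDI1 higher and FDPS lower, each without overlap. IDI1 has 3 named pseudogenes and FDPS has 8, and their division of reads is uncertain. The same holds for ACAT2 and MVK, which overlap exons of TCP1 and MMAB on the other strand. TCP1 was at 382 and 369 TPM in libraries labelled sh-ZNF217, against 485 and 470 TPM in NC. MMAB was at 13.3 and 10.5 TPM against 8.91 and 10.3 TPM in NC.

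From squalene onward, 9 of 10 tested enzymes had positive values, where 7649 of all 14582 tested genes did. The median log2 fold change of the 10 was 0.17. In 4 of the 9, FDFT1, TM7SF2, NSDHL and DHCR7, the groups overlapped and the sign turned in some settings. The clearest of the 9 was MSMO1, the oxidase that starts removal of the methyl groups left after CYP51A1 has acted. MSMO1 (ENSG00000052802, chr4:165327667-165343164, hg38) stood at 37.8 and 35.6 TPM in libraries labelled sh-ZNF217, against 23.0 and 22.3 TPM in NC. Both libraries labelled sh-ZNF217 were above both NC libraries, the ratio of means was 1.62, and MSMO1 rose with a log2 fold change of 0.67 (SE 0.08, 95% interval 0.47 to 0.87, adjusted p = 0.00857). Its exons overlap those of 0 other annotated genes. The call was lost without replicate 1 of the libraries labelled sh-ZNF217 (0.63, adjusted p = 0.0559).

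SC5D, a desaturase near the end of the pathway, was at 32.9 and 35.3 TPM in libraries labelled sh-ZNF217, against 22.9 and 25.2 TPM in NC. It was higher by a log2 fold change of 0.49 (SE 0.09, adjusted p = 0.0235), just under the fold minimum. SQLE, the squalene epoxidase and a rate-controlling step, was at 63.9 and 64.1 TPM against 49.0 and 51.5 TPM in NC (0.34, SE 0.06, adjusted p = 0.0251). In both genes the groups were well apart beside the distance between replicates. CYP51A1, the lanosterol demethylase that acts shortly before MSMO1, was at 18.9 and 18.9 TPM against 14.9 and 11.8 TPM in NC (0.48, adjusted p = 0.0622). The NC libraries were further apart from each other in CYP51A1 than in SQLE, and without NC replicate 1 it was called (0.63, adjusted p = 0.0449). CYP51A1 overlaps AKAP9 on the other strand and has 3 named pseudogenes, so its reads may be shared. LSS, the lanosterol synthase, was at 23.3 and 27.6 TPM against 20.9 and 20.9 TPM in NC (0.27, adjusted p = 0.141).

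The remaining enzymes of this stretch showed little distance between the groups. FDFT1, the squalene synthase, had a log2 fold change of 0.02 (95% interval -0.14 to 0.18), NSDHL one of 0.07 and DHCR7, the reductase of the last step, one of 0.02 (-0.30 to 0.35). DHCR7 was at 37.8 and 47.7 TPM in libraries labelled sh-ZNF217, against 44.4 and 39.2 TPM in NC, so the NC levels lay inside the span of the libraries labelled sh-ZNF217. EBP, the sterol isomerase, had the one negative value (-0.10), at 91.8 and 88.4 TPM against 95.8 and 97.3 TPM in NC. TM7SF2, a sterol reductase, was the lowest member at 2.65 and 2.74 TPM against 2.30 and 2.72 TPM in NC (0.08). It overlaps exons of VPS51 on the same strand, at 24.9 and 29.2 TPM against 32.1 and 29.2 TPM in NC, so its reads may be shared. The reduction done by TM7SF2 can also be done by LBR, the lamin B receptor. LBR was far more abundant at 300.2 and 292 TPM against 333 and 338 TPM in NC (-0.18, adjusted p = 0.0559).

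**Figure D2:**
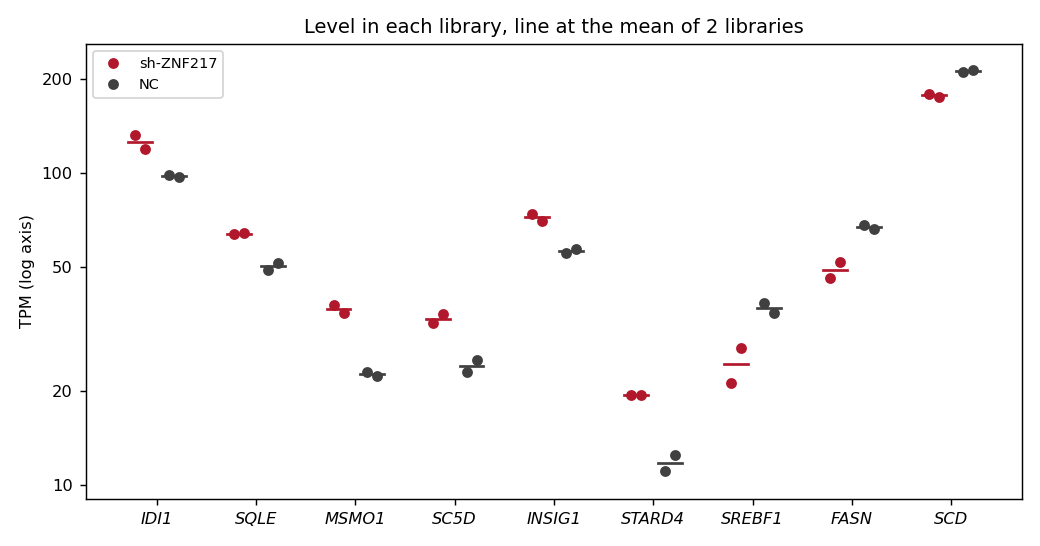
TPM on a log axis in each library for the 9 members with a limma adjusted p below 0.05, libraries labelled sh-ZNF217 in red and NC in grey, with a line at the mean of 2 libraries. IDI1, SQLE, MSMO1, SC5D, INSIG1 and STARD4 are higher in both libraries labelled sh-ZNF217, and SREBF1, FASN and SCD are lower.

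STARD4 rose, with a fold change close to that of MSMO1. Its transcript (ENSG00000164211, chr5:111496033-111512590) was at 19.4 and 19.4 TPM in libraries labelled sh-ZNF217, against 11.1 and 12.5 TPM in NC. The ratio of means was 1.65 and the log2 fold change 0.68 (SE 0.11, 95% interval 0.41 to 0.94, adjusted p = 0.016). STARD4 was no longer called when NC replicate 1 (adjusted p = 0.0508), sh-ZNF217 replicate 1 (0.0784) or sh-ZNF217 replicate 2 (0.0742) was left out, with fold changes of 0.60 to 0.75 over the left-out libraries. STARD4 overlaps exons of STARD4-AS1 on the other strand, and reads of the pair cannot be told apart, as nothing states that counting used strand.

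Among the regulators, SREBF1 fell and SREBF2 did not pass the test. SREBF1 (ENSG00000072310, chr17:17810399-17837002) was at 21.3 and 27.4 TPM in libraries labelled sh-ZNF217, against 38.4 and 35.6 TPM in NC. Both libraries labelled sh-ZNF217 were below both NC libraries, with replicate 1 the lower, and SREBF1 fell with a log2 fold change of -0.59 (SE 0.13, 95% interval -0.92 to -0.26, adjusted p = 0.0379). SREBF1 was no longer called when NC replicate 1 (adjusted p = 0.115) or 2 (0.0715) or sh-ZNF217 replicate 1 (-0.42, 0.0971) was left out. The same held with the replicate number as a block (0.0559) and without trend and robust weights (0.102). SREBF1 shares exon sequence with RAI1 on the other strand, which was at 12.3 and 13.9 TPM against 13.3 and 14.4 TPM in NC. SREBF2 was at 69.1 and 70.2 TPM against 62.3 and 61.7 TPM in NC, a small distance (0.17, SE 0.06, adjusted p = 0.116) that did not pass. Within a library, SREBF2 stood at 3.25 and 2.56 times the TPM of SREBF1 in the libraries labelled sh-ZNF217 and at 1.62 and 1.73 times in NC. That gap follows from SREBF2 being higher and SREBF1 lower, each without overlap.

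INSIG1, the retention factor that is itself a target of SREBPs, was at 74.0 and 70.3 TPM in libraries labelled sh-ZNF217, against 55.6 and 57.0 TPM in NC. It was higher by a log2 fold change of 0.35 (SE 0.06, adjusted p = 0.0232), short of the fold minimum, in the same range as IDI1 and SQLE. Its relative INSIG2 was at 15.1 and 17.2 TPM against 13.1 and 14.6 TPM in NC (0.21, adjusted p = 0.273). SCAP, the escort, was at 36.5 and 38.6 TPM against 34.8 and 32.2 TPM in NC (0.16, adjusted p = 0.225). In all 6 genes of this group the libraries of one label lay apart from those of the other, 5 of them higher and SREBF1 lower, where 62.2% of all tested genes did not overlap (33.5% higher and 28.6% lower).

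In the fatty acid arm the synthase itself was lower. FASN, the multienzyme that builds palmitate, was at 45.9 and 51.7 TPM in libraries labelled sh-ZNF217, against 68.3 and 66.2 TPM in NC. The groups were far apart beside their spread, with a ratio of means of 0.726 and a log2 fold change of -0.46 (SE 0.08, 95% interval -0.66 to -0.26, adjusted p = 0.0208), short of the fold minimum. SCD, which places the double bond in stearate and palmitate, was at 180 and 176 TPM against 211 and 214 TPM in NC (-0.26, SE 0.05, adjusted p = 0.0263). FADS1, a desaturase of polyunsaturated fatty acids, was at 56.5 and 58.9 TPM against 69.0 and 64.1 TPM in NC (-0.20, adjusted p = 0.107). Its neighbour and partner FADS2 was at 80.5 and 76.6 TPM against 71.9 and 76.8 TPM in NC (0.08), and because the genes overlap on opposite strands their division of reads is uncertain.

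The enzymes that feed FASN did not pass, nor did ELOVL5. ACLY, which makes cytosolic acetyl-CoA from citrate, was at 143 and 138 TPM in libraries labelled sh-ZNF217, against 149.7 and 154 TPM in NC (-0.11, adjusted p = 0.216). ACSS2, which makes it from acetate, was at 16.1 and 17.0 TPM against 12.5 and 15.9 TPM in NC (0.22, adjusted p = 0.325). ACACA, the carboxylase that makes malonyl-CoA, was at 6.95 and 7.60 TPM against 7.25 and 8.02 TPM in NC (-0.06), and ELOVL5, an elongase, was at 154 and 142 TPM against 147 and 167 TPM in NC (-0.08). In ACACA and ELOVL5 the groups overlapped. Against FASN in the same library, MSMO1 stood at 0.822 and 0.689 in the libraries labelled sh-ZNF217 and at 0.337 and 0.337 in NC. SQLE stood at 1.39 and 1.24 against 0.718 and 0.778 in NC. These gaps only restate the levels above, since MSMO1 and SQLE were higher and FASN lower, each without overlap.

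**Figure D3:**
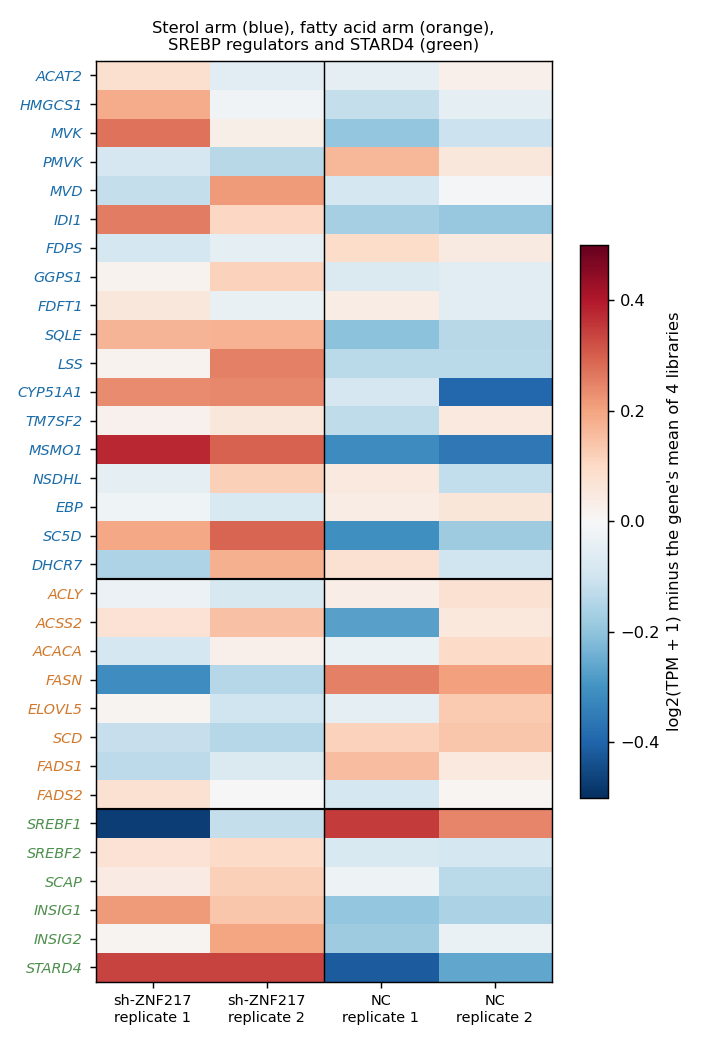
Log2(TPM + 1) of each of 32 members in each library minus the gene's mean over the 4 libraries, red above and blue below it, with the sterol arm on top, the fatty acid arm in the middle and the SREBP regulators with STARD4 at the bottom. MSMO1 and STARD4 are red in both libraries labelled sh-ZNF217 and blue in both NC libraries, while FASN, SCD and SREBF1 show the reverse.

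Base composition moved with the fold change. Over all tested genes with an annotated transcript, the median log2 fold change was 0.11 in the fifth of genes with the lowest GC content and -0.08 in the fifth with the highest. STARD4 (34.4% GC), SC5D (36.9%), MSMO1 (37.4%) and IDI1 (37.9%) are poor in GC, and SREBF1 (63.2%) and FASN (65.3%) are rich in it. After a correction of each library for GC content and length, MSMO1 was at 0.58 (adjusted p = 0.00785), STARD4 at 0.51 (0.0237) and SREBF1 at -0.53 (0.0228), and all 3 were still called. The part of base composition in these results beyond that correction was not tested. SC5D came down to 0.31 (adjusted p = 0.0572), while SQLE stood at 0.29 (0.0235), INSIG1 at 0.29 (0.0222), SCD at -0.34 (0.00799) and FASN at -0.40 (0.0101). HMGCS1 came to 0.028, GGPS1 to 0.043 and INSIG2 to 0.077, each well below its value without the correction. The median of the sterol arm was then 0.13 and that of the fatty acid arm -0.17.

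**Figure D4:**
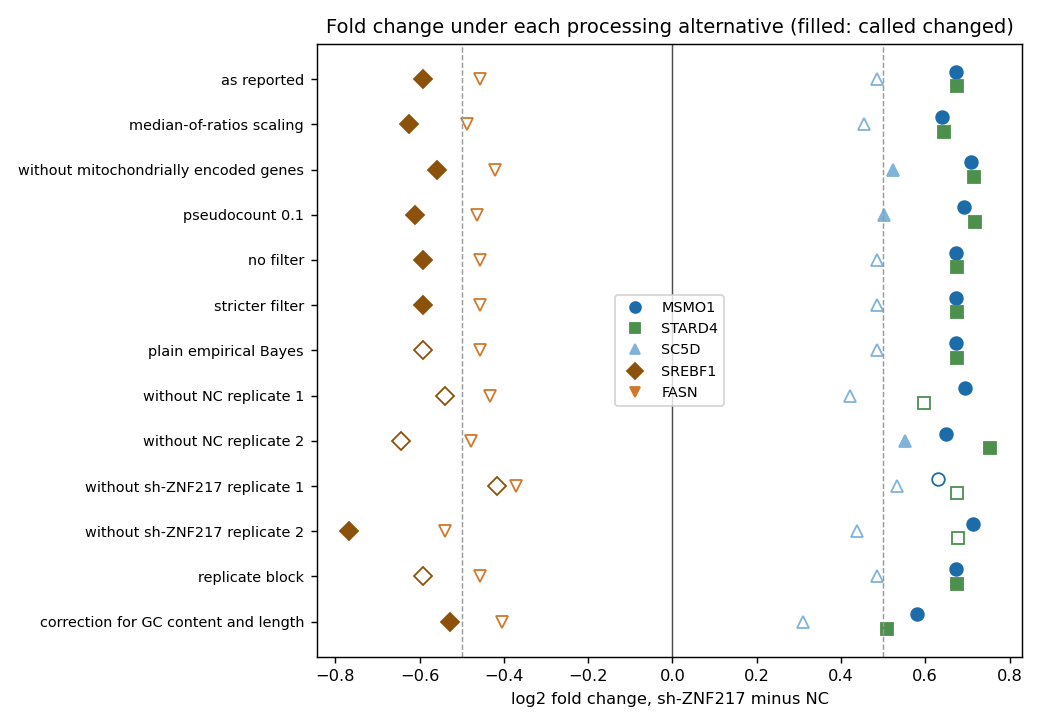
Log2 fold change, libraries labelled sh-ZNF217 minus NC, of MSMO1, STARD4, SC5D, SREBF1 and FASN as reported and under each of 12 processing alternatives, with filled markers where the gene was called. The sign of each gene is the same throughout, and SREBF1 ranges from -0.77 to -0.42 over left-out libraries.

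Other genes of the pathway were taken from a list of 43, of which 39 were tested. They comprise handling of sterol, release and turnover of SREBPs, use of isoprenoids, and elongation and activation of fatty acids. Of these, 2 rose and 0 fell by limma (5.13% against 8.72% of all genes), with a median log2 fold change of 0.12. At an adjusted p below 0.05 with no fold minimum 8 were higher (20.5%, against 9.77% of all genes) and 2 lower (5.13%, against 7.11%). NPC2, which hands cholesterol out of the lysosome, was at 403 and 395 TPM in libraries labelled sh-ZNF217, against 226 and 228 TPM in NC, and rose 1.76-fold (log2 fold change 0.81, SE 0.05, limma adjusted p = 0.00157). Its membrane partner NPC1 was higher short of the fold minimum, at 49.4 and 47.9 TPM against 35.3 and 36.9 TPM in NC (0.42, adjusted p = 0.0183). ACSL4, which activates polyunsaturated fatty acids, was at 61.8 and 60.8 TPM against 41.7 and 43.2 TPM in NC and rose (0.52, adjusted p = 0.00962). ACSL4 was no longer called when NC replicate 1 (0.49) or sh-ZNF217 replicate 1 or 2 (adjusted p = 0.0576 and 0.0542) was left out, nor with median-of-ratios scaling (0.49), plain empirical Bayes (adjusted p = 0.0519) or GC and length correction (0.37). ERLIN1, a restrainer of SREBP at the endoplasmic reticulum, was lower short of the fold minimum, at 109 and 99.3 TPM against 139 and 139.6 TPM in NC (-0.42, adjusted p = 0.0148).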

How the data were processed

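Total RNA was made into TruSeq libraries per the labels. After read filtering, the authors aligned to hg38 with HISAT2 (2.0.5, from the submitters' processing notes) and quantified genes. They name their measure FPM. Not given in the sources used here are the quantifier, annotation release, strand use and depth. Values as deposited by the authors were taken to be TPM, since the header names no unit and the columns sum to 998932 to 999282. NC or ZNF with the replicate number in a column's name gave its sample, and the rest of the name is not explained.

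Genes were named through GENCODE 44 identifiers (16143 of 17656). Values were taken as log2(TPM + 1), which understates changes of low genes, and the filter kept the 14582 genes that reached 1 TPM in at least 2 libraries. Differences (sh-ZNF217 minus NC) came from limma 3.58.1 under R 4.3.3, with group as the one term and trended, robust empirical Bayes. The Benjamini-Hochberg method was applied across the 14582 genes. Calls needed an adjusted p under 0.05 plus a log2 fold change beyond 0.5 either way. The procedure was tested on simulated data. The genes, lists and tests were chosen with earlier results of these data known. By rule, every member is named, and from other lists the called genes. LBR, NPC1, ERLIN1, MYLIP, PLTP, NR1H2, LPCAT3 and ABCA1 were added after their values were seen, and 1 other gene of the pathway is not reported here. Figures used matplotlib 3.10.9.

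Alternatives were median-of-ratios scaling, removal of mitochondrially encoded genes, a pseudocount of 0.1, no filter, a filter at a mean of 5 TPM, plain empirical Bayes, each library left out, the replicate number as a block, and a loess correction for GC content and length of the canonical transcript.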

Additional observations from a re-analysis of the deposited data

How the results depend on the processing

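Depth is unknown with TPM, and 2 libraries a group limit every call. The whole-table count of 1272 was 723 with plain empirical Bayes and 430 to 1029 over left-out libraries. With median-of-ratios scaling it was split into 815 higher and 441 lower, against 913 and 359 as reported, and without mitochondrially encoded genes into 1046 and 301. The sterol arm held 3 called enzymes without mitochondrially encoded genes (MSMO1, CYP51A1 and SC5D), 2 with a pseudocount of 0.1 (MSMO1 and SC5D), and 0 to 2 over left-out libraries, while the fatty acid arm held 0 in each alternative. The regulators with STARD4 held 1 with plain empirical Bayes and with the block, and 0 to 1 over left-out libraries. The other pathway genes held 1 with median-of-ratios scaling, plain empirical Bayes or the GC and length correction, and 1 to 2 over left-out libraries. The LXR genes held 1 with the stricter filter, 0 with plain empirical Bayes, 1 with the block and 0 to 1 over left-out libraries. The sterol median was 0.15 without mitochondrially encoded genes and 0.086 to 0.18 over left-out libraries, and the fatty acid median was -0.17 with the GC and length correction and -0.14 to -0.043 over left-out libraries. Signs turned for uncalled genes near 0, which were ACAT2 (-0.012), FDFT1 (-0.012) and DHCR7 (-0.0078) with median-of-ratios scaling and FDFT1 (-0.0021) with the GC and length correction. Over left-out libraries ACAT2 ran from -0.048 to 0.090, MVD from -0.073 to 0.26, FDFT1 from -0.027 to 0.069, TM7SF2 from -0.013 to 0.16, NSDHL from -0.011 to 0.16, DHCR7 from -0.14 to 0.19, ACACA from -0.13 to 0.0025 and ELOVL5 from -0.17 to 0.0026. The cause of these shifts was not tested. Replicates share only a number. Deviations of same-numbered libraries had a correlation of -0.0053 over genes, and with the replicate number as a block 1049 genes were called, among the members MSMO1 and STARD4.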

Other observations

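Genes of the oxysterol receptor LXR, of which SREBF1 is a known target, were taken from a list of 8, and 6 were tested. Of these, 1 rose and 1 fell (33.3% against 8.72% of all genes). NR1H3, which encodes 1 form of LXR, had 2.57 and 3.09 TPM under the sh-ZNF217 label, against 5.69 and 7.01 TPM in NC. It fell (log2 fold change -0.94, SE 0.19, limma adjusted p = 0.0294). SMPDL3A, a phosphodiesterase induced by LXR in human macrophages, was at 13.2 and 14.4 TPM against 8.79 and 6.40 TPM in NC, and rose (0.80, SE 0.17, adjusted p = 0.033). NR1H3 was no longer called when any 1 of the 4 libraries was left out (limma adjusted p = 0.0594 to 0.114) or with plain empirical Bayes (0.0518). SMPDL3A was no longer called without NC replicate 2 (0.0739), sh-ZNF217 replicate 1 (0.106) or 2 (0.132), with the replicate block (0.0532) or with plain empirical Bayes (0.0800). MYLIP, a ubiquitin ligase, was lower at 18.1 and 16.7 TPM against 23.8 and 24.2 TPM in NC (-0.44, adjusted p = 0.0306), and so was PLTP, the phospholipid transfer protein, at 87.3 and 92.0 TPM against 115 and 109 TPM in NC (-0.31, adjusted p = 0.0276), both short of the fold minimum. NR1H2, which encodes the other LXR form, was more abundant than NR1H3, at 41.0 and 43.0 TPM against 42.6 and 35.7 TPM in NC. Neither NR1H2 (0.10) nor LPCAT3 (0.01) passed. ABCA1, the cholesterol exporter, failed the filter at 0.801 and 1.25 TPM against 0.156 and 0.194 TPM in NC.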
